A study of Mus musculus with 16 samples.

Results

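The miR-379 to miR-410 cluster is a run of miRNA genes on mouse chromosome 12, inside an imprinted domain. Its 43 members were taken as the names on the array that belong to the cluster, from mmu-miR-379 at its upstream end to mmu-miR-410 at its downstream end, with all probes of each name. All 43 were among the 650 miRNA names of the array. Feature Extraction, the scanner software, detected 36 of the 43 members on at least 1 array and between 29 and 33 on each array. A member counted as expressed when a share of 0.5 or more of the arrays in any group had detected it. This held for 34 members, among 281 expressed miRNAs in all.

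miRNAs were measured in sciatic nerves of Dicer1tm1Bdh/J mice, 4 per group, each on its own Agilent array. The mutants, fl-E17 and fl-P4, were Dicer1 fl/fl, and the controls, wt-E17 and wt-P4, were Dicer1 wt/fl. The controls therefore carried a floxed allele too, and all mice of the 4 groups were Dhh-Cre pos. Nerves were taken at embryonic day 17 (E17) or at postnatal day 4 (P4). According to the study's methods, mutants and controls of each age were littermates. The Dhh promoter drives Cre in Schwann cells, while whole nerves, which also hold other cells, were measured. The array does not measure Dicer mRNA, and fewer cells of a type cannot be told apart from less RNA per cell in such samples.

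Dicer cuts the hairpin precursors of miRNAs into mature strands, and a miRNA selects its target mRNAs mainly through the seed near its 5′ end. The cluster lies in the Dlk1-Dio3 domain, where its miRNAs are expressed from the maternally inherited chromosome together with the long non-coding RNAs Meg3, Rian and Mirg. It is best known from brain, embryo and placenta, and miR-134 is known as a regulator of dendritic spines in neurons. Names ending in an asterisk are old names for the strand of a hairpin once taken to be the minor one.

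In the RefSeq annotation of GRCm38.p6, the hairpins from Mir379 to Mir410 span 34.7 kb of the plus strand. Mature sequences were found there for 40 of the 43 members. The arm of a member with an old name follows later nomenclature. mmu-miR-376c, mmu-miR-487b and mmu-miR-485 are named only. The following are the strands of the members that were higher in P4 mutants and have a sequence in that table, in genome order and with the seed (bases 2 to 8) in capitals.

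mmu-miR-379: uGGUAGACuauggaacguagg
mmu-miR-411: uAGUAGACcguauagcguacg
mmu-miR-299*: uGGUUUACcgucccacauacau
mmu-miR-329: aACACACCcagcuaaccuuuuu
mmu-miR-376a: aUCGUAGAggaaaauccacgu
mmu-miR-300: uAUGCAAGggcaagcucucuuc
mmu-miR-382: gAAGUUGUucgugguggauucg
mmu-miR-154: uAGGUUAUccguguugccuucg
mmu-miR-410: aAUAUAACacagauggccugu

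Among these strands no seed occurred more than once. The mature mmu-miR-379 lies at chr12:109709065-109709085 and mmu-miR-410 at chr12:109743764-109743784. Counted from the start of Mir379, the hairpins of the members higher at P4 begin at 0 kb, 1.115 kb (Mir411), 1.578 kb (Mir299a), 4.421 kb (Mir329), 14.721 kb (Mir376a), 15.253 kb (Mir300), 18.273 kb (Mir487b), 24.711 kb (Mir382), 29.373 kb (Mir154) and 34.655 kb (Mir410). They were thus spread from end to end of the cluster.

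A further set is shown because its strands resemble one another, and probes may not fully separate such strands.

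mmu-miR-381: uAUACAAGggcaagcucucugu
mmu-miR-376b: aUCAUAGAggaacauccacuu
mmu-miR-376b*: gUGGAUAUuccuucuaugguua
mmu-miR-376c*: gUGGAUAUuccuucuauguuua
mmu-miR-543: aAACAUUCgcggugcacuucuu
mmu-miR-495: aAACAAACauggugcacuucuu

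mmu-miR-300 and mmu-miR-381 differed at 3 of 22 aligned bases, mmu-miR-376a and mmu-miR-376b at 3 of 21, mmu-miR-543 and mmu-miR-495 at 4 of 22, and mmu-miR-376b* and mmu-miR-376c* at 1 of 22. The last pair was the only one among the 40 sequences to share a seed. The others of these pairs share most of their bases outside the seed, and their values are uncertain as far as a strand may bind to the probe of its relative.

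Values are log2 median spot signals after quantile normalization over all 16 arrays, so that a member is measured against the other miRNAs of its array. A member was called where limma gave an adjusted p no higher than 0.05 over the 681 expressed probes and the groups differed by 0.5 or more on the log2 scale. In P4 mutants 10 of the 34 expressed members were called higher and 0 lower. That is 29.4% of the members, where 10.3% of all 281 expressed miRNAs were called higher and 10.7% lower. Of the 34, mmu-miR-539 and mmu-miR-485* were never well above background, and mmu-miR-539 counted as expressed only through 2 fl-P4 arrays. The fitted difference was above 0 for the other 32 members, with a median of 0.37, against 0.06 over all expressed miRNAs. At the adjusted p alone, without the limit on size, 26 members (76.5%) were higher, against 29.5% of all miRNAs. In 25 members (73.5%) every mutant array lay above every control array, against 24.2% of all miRNAs.

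At the upstream end, mmu-miR-379 measured 9.32, 9.12, 8.91 and 9.24 in wt-P4 and 9.98, 10.23, 9.60 and 10.01 in fl-P4. All mutant arrays lay above all control arrays, and the log2 difference was 0.81 ± 0.16 (SE, adjusted p = 0.000805). Its neighbour mmu-miR-411 measured 7.68, 7.62, 7.41 and 7.61 in wt-P4 against 8.14, 8.28, 7.95 and 8.29 in fl-P4, again without overlap, a difference of 0.58 ± 0.09 (adjusted p = 0.000159).

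The 10 called members included mmu-miR-299*, the strand with the largest difference of the cluster. It measured 8.53, 8.32, 8.19 and 8.45 in wt-P4 and 9.40, 9.56, 8.83 and 9.40 in fl-P4. The mutants were 0.93 ± 0.14 higher (adjusted p = 0.000108), and their lowest array was the third. The same array was lowest for mmu-miR-329, which measured 8.33, 8.32, 8.09 and 8.45 in wt-P4 and 9.23, 9.30, 8.62 and 9.31 in fl-P4, a difference of 0.82 ± 0.14 (adjusted p = 0.000225).

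In the middle of the cluster, mmu-miR-376a, of a family known for A-to-I editing of its precursors, measured 7.47, 7.34, 7.22 and 7.61 in wt-P4 and 8.07, 8.06, 7.79 and 8.08 in fl-P4. The groups did not overlap, and the difference was 0.59 ± 0.10 (adjusted p = 0.000277). For mmu-miR-300 the control arrays read 8.61, 8.59, 8.28 and 8.77 and the mutant arrays 9.65, 9.52, 8.93 and 9.64, a difference of 0.88 ± 0.15 (adjusted p = 0.000317). Its relative mmu-miR-381 moved by 0.41 ± 0.07 (adjusted p = 0.000291), under the limit on size, with ranges of 6.51 to 6.66 and 6.79 to 7.13. mmu-miR-487b measured 7.53, 7.49, 7.34 and 7.66 in wt-P4 and 8.16, 8.18, 7.74 and 8.39 in fl-P4, which gave 0.61 ± 0.11 (adjusted p = 0.000439). None of these members had a mutant array at or under a control array.

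Towards the downstream end, mmu-miR-382 measured 7.70, 7.60, 7.51 and 7.76 in wt-P4 and 8.29, 8.40, 7.92 and 8.63 in fl-P4, a difference of 0.67 ± 0.13 (adjusted p = 0.000749). mmu-miR-154 measured 7.96, 7.91, 7.67 and 7.91 in wt-P4 and 8.81, 8.79, 8.26 and 9.04 in fl-P4, a difference of 0.86 ± 0.14 (adjusted p = 0.000207). For mmu-miR-410, the last member, the controls read 8.23, 7.92, 7.90 and 8.29 and the mutants 9.04, 8.80, 8.42 and 8.95, a difference of 0.72 ± 0.16 (adjusted p = 0.00184). Both ends of the cluster were thus higher in mutants, with no overlap of the groups at either.

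**Figure D1:**
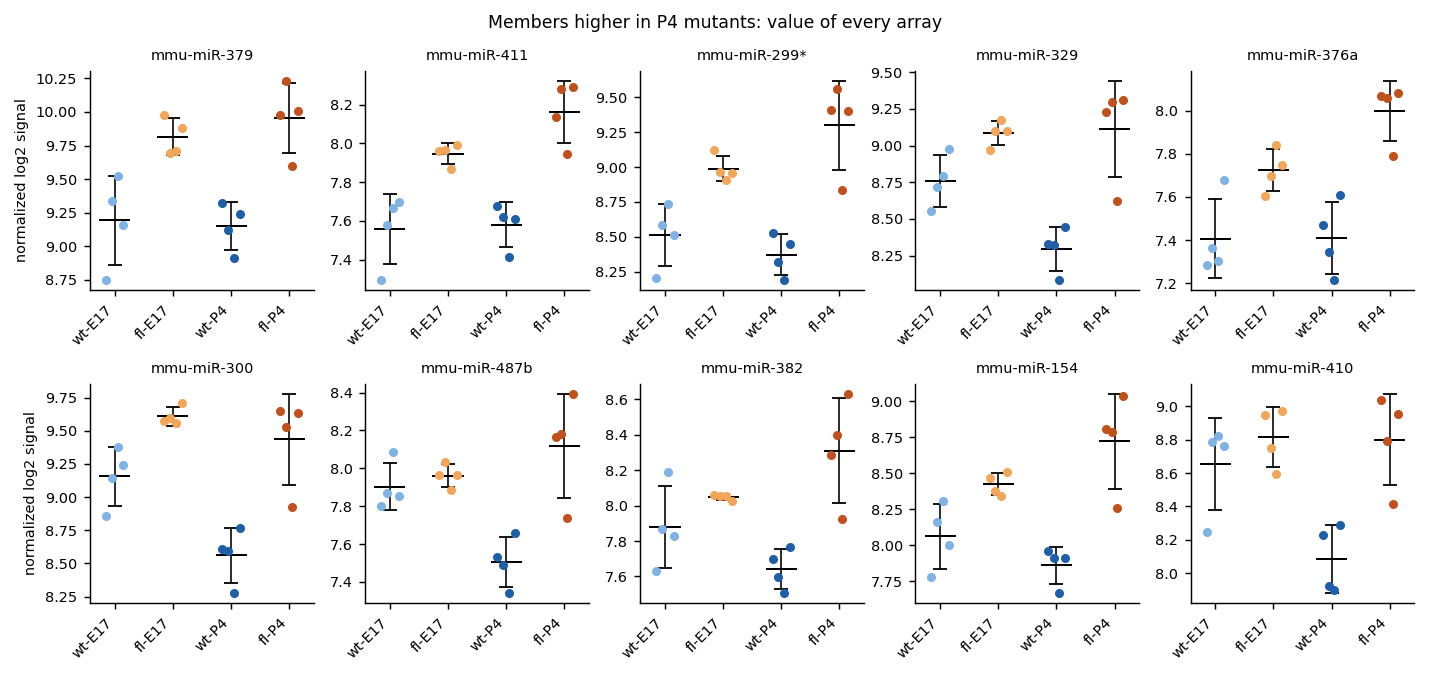
Normalized log2 signal (y axis, a scale of its own in each panel) of the 10 members called higher in P4 mutants, in the 4 groups. Points are arrays, lines are means and bars are SD over 4 arrays. In every panel the 4 fl-P4 points lie above the 4 wt-P4 points, and the lowest fl-P4 point stands below the other fl-P4 points.

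Each of the called members has 2 probes. Both were called for mmu-miR-379, mmu-miR-329, mmu-miR-382, mmu-miR-154 and mmu-miR-410, and both were closest for mmu-miR-410, at 0.72 and 0.73. The second probe stayed under the limit on size for mmu-miR-411 (0.38), mmu-miR-299* (0.47), mmu-miR-376a (0.37), mmu-miR-300 (0.44) and mmu-miR-487b (0.28), each in the same direction as the brighter probe, whose value is the one given.

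Just outside the limit on size lay mmu-miR-377 (0.496, adjusted p = 0.00321), mmu-miR-495 (0.47) and mmu-miR-411* (0.45). The groups of mmu-miR-377 overlapped, with 6.47 to 6.96 in wt-P4 and 6.95 to 7.35 in fl-P4. At or under an adjusted p of 0.05 but with smaller differences were mmu-miR-381, mmu-miR-369-5p (0.38), mmu-miR-409-5p (0.37), mmu-miR-376c (0.37), mmu-miR-409-3p (0.36), mmu-miR-376b (0.34), mmu-miR-543 (0.32), mmu-miR-323-3p (0.30), mmu-miR-485 (0.27), mmu-miR-382* (0.27), mmu-miR-496 (0.26), mmu-miR-376b* (0.18) and mmu-miR-376a* (0.16). All of them differed in the same direction as the called members.

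Past neither limit were mmu-miR-154* (0.23), mmu-miR-541 (0.19), mmu-miR-380-3p (0.13), mmu-miR-299 (0.09), mmu-miR-494 (0.06) and mmu-miR-134 (0.03), the last of which was near background, well above it on 1 fl-P4 and 2 wt-P4 arrays. The 0.06 of mmu-miR-494 rested on 1 wt-P4 array far above the others, as given below. No difference is given for mmu-miR-539 and mmu-miR-485*. Not called expressed were mmu-miR-666-3p and mmu-miR-376c*, each detected on 1 array. mmu-miR-380-5p, mmu-miR-679, mmu-miR-666-5p, mmu-miR-667, mmu-miR-544, mmu-miR-412 and mmu-miR-369-3p were detected on none.

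The median spot signal still contains the local background, which makes log2 differences of dim probes smaller. With background-subtracted signals, normalized in the same way, the 34 members differed by 0.20 to 1.05 at P4. Their median was 0.74 against 0.24 over all expressed miRNAs. The 34, here and below, include mmu-miR-539 and mmu-miR-485*, which were never well above background. Of the 34, 26 were called, all of them higher, where 26.3% of all miRNAs were called higher and 26.7% lower.

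The direction at P4 depended on the scale to which the arrays were set. Without normalization between arrays, limma called 0 members at P4, where 0.356% of all miRNAs were called higher and 31.7% lower by the same limits. At an unadjusted p under 0.05, without the limit on size, 0 members differed either. No share over all miRNAs was taken for that rule. The median difference over the 34 members was 0.01 and that over all expressed miRNAs was -0.19. On background-subtracted signals without normalization, 22 members were above 0 and 12 below, and the median over all expressed miRNAs was -0.44. With the arrays scaled to their 75th percentile, 33 members were called, all of them higher, where 60.1% of all miRNAs were called higher and 14.6% lower, and the median of all expressed miRNAs was then 0.47 against 0.67 for the members.

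The same can be read from the summed signal, the total over the background-subtracted gene signals of the scanner software. The 43 members together gave 4758, 6585, 4359 and 4652 units in wt-P4 and 4807, 6452, 4147 and 5647 in fl-P4, ranges that overlapped widely. The sum over all mouse miRNAs was between 122656 and 153912 units in wt-P4 and between 56470 and 83531 in fl-P4. The members therefore took 3.31% to 4.28% of the summed signal in wt-P4, with a mean of 3.77% ± 0.40 (SD, n = 4), and 7.34% to 7.83% in fl-P4, with a mean of 7.58% ± 0.24 (SD, n = 4). The mean share was 2.01 times as high in mutants, while the mean summed signal of the members was 1.03 times and that of all mouse miRNAs 0.516 times that of controls. The 7.34% of fl-P4 array 3, which enters this mean, included mmu-miR-376c*, whose 2 spots well above background there were marked as outliers. Without mmu-miR-376c* it was 6.89%. From median signals without background subtraction, the shares lay closer together, at 4.44% to 5.03% in wt-P4 and 6.80% to 7.265% in fl-P4. Their means were then 4.76% and 7.07%. These shares are a description without a test, since the members were chosen with earlier results known, and a sum over probes depends on how brightly each probe binds.

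**Figure D2:**
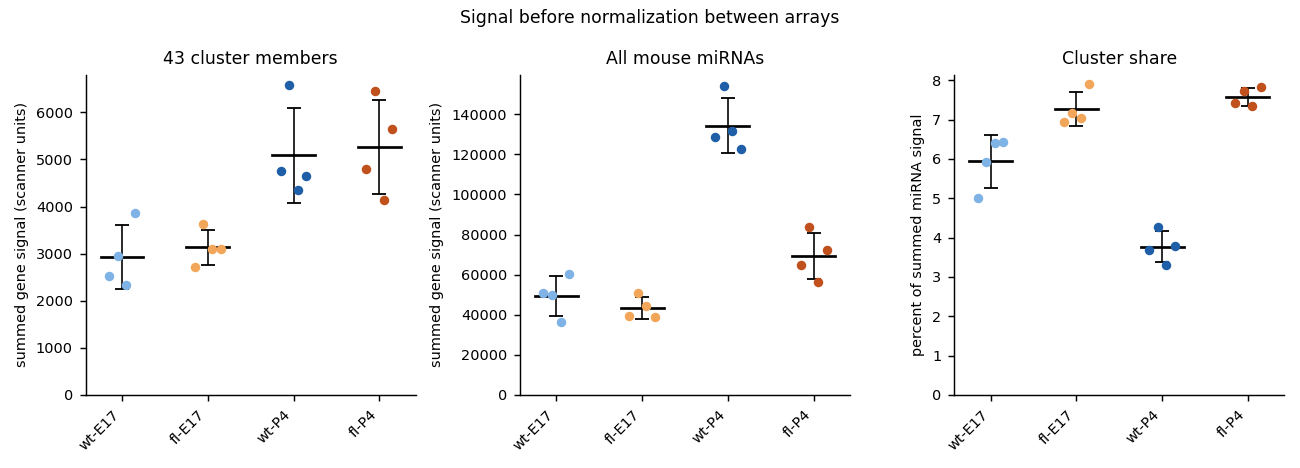
Summed gene signal of the 43 members (left), of all mouse miRNAs (middle) and the share of the members in percent (right), before normalization between arrays, in the 4 groups. Points are arrays, lines are means and bars are SD over 4 arrays. At P4 the member sums of both genotypes overlap, the sums of all miRNAs do not, and the shares are 3.31% to 4.28% in controls and 7.34% to 7.83% in mutants. The 7.34%, of fl-P4 array 3, is 6.89% without mmu-miR-376c*.

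The members at the ends of the cluster can be read on the same scale. The unnormalized gene signal of mmu-miR-379 was 791.9, 829.7, 692.4 and 681.9 units in wt-P4 and 668.6, 1055, 643.5 and 762 in fl-P4. That of mmu-miR-410 was 489.7, 472.2, 442.8 and 487 in wt-P4 and 498.4, 554.6, 373.7 and 545.1 in fl-P4. On this scale the mutant arrays of both overlapped with the control arrays. Other members differed from the sum, such as mmu-miR-494, with a mean of 360.6 units in wt-P4, which held 1 array at 1205, and of 120 in fl-P4.

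Markers of several cell types of the nerve, though not of all those listed, differed between the genotypes at P4 beside the share of the cluster. The 7 Schwann cell miRNAs were picked here from those that the study selected on these same samples. That selection required lower signals in P4 mutants, so their direction at P4 was set by the choice and is no independent evidence. They took 6% to 7.31% of the summed signal in wt-P4 and 0.908% to 1.14% in fl-P4, and 7 of 7 were called lower. Of 8 listed mesenchymal miRNAs 5 were expressed, and 4 of these were called higher at P4; their list took 4.22% to 4.90% in wt-P4 and 9.48% to 12% in fl-P4, while mmu-miR-145 and mmu-miR-214* were not detected on any array. The leukocyte list (3 of 5 expressed, 1 called higher) took 0.173% to 0.222% and 0.432% to 0.729%, with mmu-miR-142-5p and mmu-miR-150 not detected. The endothelial list (2 of 2 expressed, 1 called higher) took 0.910% to 1.55% and 1.55% to 1.81%. A share can rise here without more signal, since the sum over all miRNAs was lower in fl-P4. The mean unnormalized signal of mmu-miR-126-3p was 1492 units in wt-P4 and 1150 in fl-P4, and that of mmu-miR-126-5p was 9.795 and 9.991. That of mesenchymal mmu-miR-143 was 87.2 and 58.2, while the other expressed mesenchymal miRNAs were higher, such as mmu-miR-199a-3p at 3349 and 3806. The part of these cell types in the shift of the cluster was not tested.

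The erythroid list (3 of 3 expressed, 1 called higher) took 0.167% to 1.13% in wt-P4 and 0.543% to 1.96% in fl-P4, and the skeletal muscle list (4 of 4 expressed, 0 called) took 0.201% to 0.372% and 0.237% to 1.52%. Both pairs of ranges overlapped. The neuron list (6 of 7 expressed, 2 called lower) took 0.192% to 0.242% and 0.206% to 0.254%, with mmu-miR-129-5p not detected.

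The other miRNAs of the imprinted locus, 31 names on the array of which 12 were expressed, are transcribed upstream of the cluster or between its members. Of these, 4 were called higher at P4 and 0 lower, namely mmu-miR-434-3p (0.97), mmu-miR-127 (0.85), mmu-miR-337-5p (0.63) and mmu-miR-136 (0.62). mmu-miR-127 and mmu-miR-136 lie antisense to Rtl1 and are known to guide its cleavage. The median difference over the 12 was 0.38, against 0.37 over the 32 cluster members ever well above background. The share of the 31 names in the summed signal was 1.48% to 1.64% in wt-P4 and 2.91% to 3.55% in fl-P4.

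At E17, 1 of 34 members was called higher in mutants and 0 lower, which is 2.94% of the members where 3.56% of all expressed miRNAs were called higher and 2.49% lower. This member was mmu-miR-379, which measured 8.75, 9.34, 9.52 and 9.16 in wt-E17 and 9.98, 9.70, 9.71 and 9.88 in fl-E17. The groups did not overlap, and the difference was 0.62 ± 0.16 (adjusted p = 0.0228), but its second probe gave 0.36. Without wt-E17 replicate 1, the lowest control array, the difference was 0.47 and no longer past the limits, and it also lost its call without fl-E17 replicate 1 (0.57) or 4 (0.60).

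The difference at E17 was above 0 for 31 of the 32 members that were ever well above background, with a median of 0.17 against -0.0043 over all expressed miRNAs. At the adjusted p alone 5 members (14.7%) were higher, against 8.19% of all miRNAs. These were mmu-miR-379, mmu-miR-299* (0.48), mmu-miR-411 (0.39), mmu-miR-376b (0.38) and mmu-miR-411* (0.37), of which 4 come from the first 3 hairpins. All mutant arrays lay above all control arrays in 12 members (35.3%), against 11% of all miRNAs. The share of the cluster was 4.999%, 5.91%, 6.41% and 6.42% in wt-E17 and 6.94%, 7.16%, 7.04% and 7.91% in fl-E17, without overlap, and its mean was 1.22 times as high in mutants. The mean summed signal of the members was 1.07 times and that of all mouse miRNAs 0.878 times that of controls. The member sums overlapped, at 2335 to 3869 units in wt-E17 and 2723 to 3629 in fl-E17. From median signals without background subtraction, the shares of the cluster lay closer together. They were 5.79% to 6.46% in wt-E17 and 6.64% to 6.99% in fl-E17. The mesenchymal list took 4.54% to 7.59% in wt-E17 and 8.86% to 9.82% in fl-E17, and the Schwann cell list 2.27% to 3.37% and 1.90% to 2.10%. The leukocyte list took 0.224% to 0.294% in wt-E17 and 0.353% to 0.422% in fl-E17, and the endothelial list 0.732% to 1.02% and 1.11% to 1.46%. None of these 4 pairs of ranges overlapped. The erythroid list took 1.74% to 5.45% and 5.39% to 12.2%, with means of 3.16% and 8.04%, the skeletal muscle list 0.408% to 1.38% and 0.518% to 2.19%, and the neuron list 0.263% to 0.467% and 0.326% to 0.372%, and these ranges overlapped. Their part in the E17 values was not tested.

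**Figure D3:**
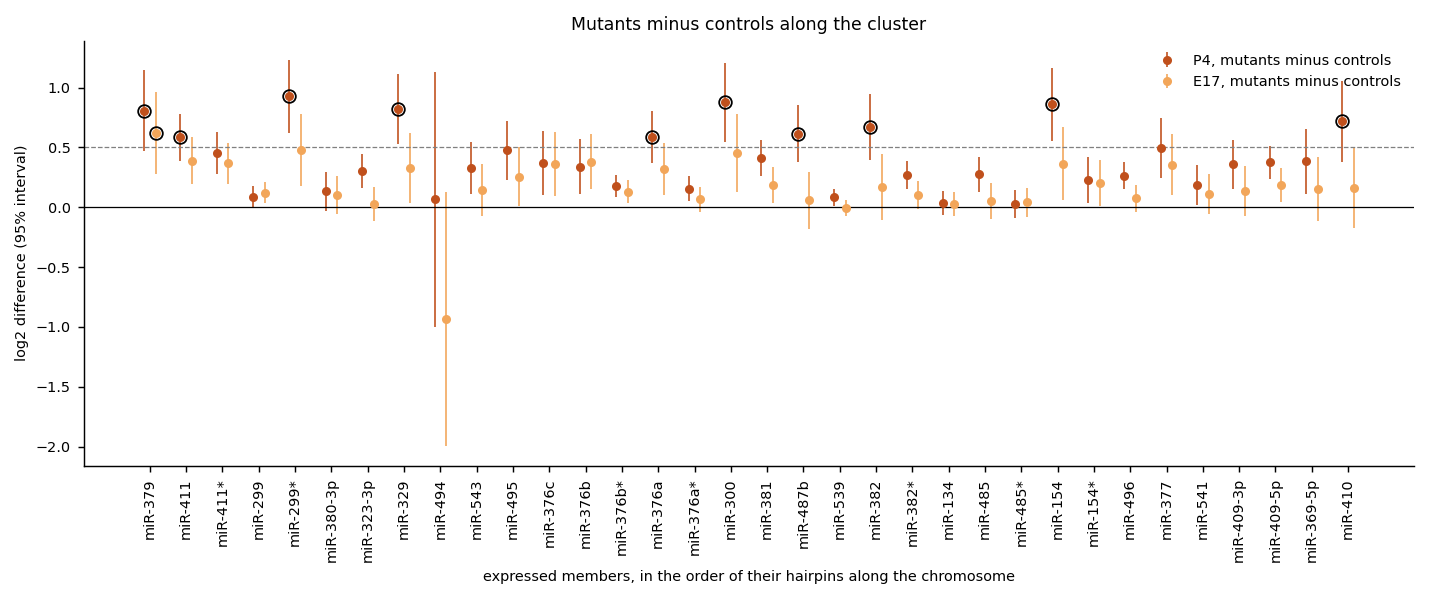
Log2 difference between mutants and controls (y axis) of the 34 expressed members, in the order of their hairpins along the chromosome, at P4 and at E17. Points are estimates with 95% intervals of the limma fit, circles mark called members and the dashed line marks a difference of 0.5. All 34 values at P4 and 32 at E17 lie above 0, those of mmu-miR-539 and mmu-miR-485* without signals well above background, and mmu-miR-494 has the widest intervals.

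The difference between the mutant effects at P4 and at E17 was tested in the same fit. It was called for 1 member (2.94%), higher at P4, where 2.85% of all miRNAs were called higher and 6.76% lower. This was mmu-miR-487b, which measured 7.80, 7.87, 8.08 and 7.86 in wt-E17 and 7.96, 8.03, 7.88 and 7.96 in fl-E17. These groups overlapped, with a difference of 0.06 ± 0.11, and the effect at P4 was larger by 0.55 ± 0.16 (adjusted p = 0.0298). The call was kept in 7 of the 16 fits that each left out 1 array, where the change ranged from 0.46 to 0.68. The second probe of mmu-miR-487b gave 0.27 in the full fit, under the limit on size. For 30 of the 32 members ever well above background the P4 effect was the larger one. Their median change was 0.19 against 0.05 over all miRNAs. Without normalization between arrays, however, the P4 effect was larger for only 2 of the 34 expressed members, with a median of -0.27 against -0.40.

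From E17 to P4 in controls, 4 members (11.8%) were called lower and 0 higher, where 12.1% of all expressed miRNAs were called lower and 8.19% higher. At an unadjusted p under 0.05, 13 members were lower and 4 higher, where 26.3% of all miRNAs were lower and 28.8% higher. Both splits moved with the scale of the whole array. Without normalization between arrays 18 members were called higher and 0 lower, where 57.3% of all miRNAs were called higher and 1.42% lower. Scaling to the 75th percentile gave 26 lower and 0 higher, where 64.1% of all miRNAs were called lower and 12.8% higher. Among the called members the largest fall was that of mmu-miR-495, from 7.60, 7.84, 7.95 and 7.96 in wt-E17 to 6.93, 7.10, 6.92 and 7.11 in wt-P4, a difference of -0.82 ± 0.11 (adjusted p = 6.3e-05). Its neighbour mmu-miR-543, whose strand ends in the same bases, went from 6.84, 6.97, 7.24 and 7.26 to 6.41, 6.46, 6.38 and 6.52, a difference of -0.63 ± 0.10 (adjusted p = 0.00022). Neither pair of groups overlapped. All E17 arrays lay on 1 slide and all P4 arrays on another, which means that the effects of age and of slide cannot be told apart here.

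The other members called lower were mmu-miR-300 and mmu-miR-410. mmu-miR-300 measured 8.86, 9.14, 9.37 and 9.24 in wt-E17, and its difference was -0.60 ± 0.15 (adjusted p = 0.00698). mmu-miR-410 measured 8.24, 8.79, 8.82 and 8.76 in wt-E17, overlapping with wt-P4 through the first of these arrays, and its difference was -0.57 ± 0.16 (adjusted p = 0.0107). Without normalization between arrays both turned, to 0.66 for mmu-miR-300 and 0.57 for mmu-miR-410. On that scale mmu-miR-495 and mmu-miR-543 stood at -0.05 and -0.08 and the median of all expressed miRNAs at 0.57. With normalization, both probes were called for mmu-miR-410 (-0.57 and -0.55). The second probe stayed under the limit on size for mmu-miR-495 (-0.39), mmu-miR-543 (-0.215) and mmu-miR-300 (-0.20).

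mmu-miR-376c differed in the other direction, with a median of 7.39 in wt-E17 and 7.72 in wt-P4 and no overlap between these groups. Its difference of 0.36 ± 0.12 (adjusted p = 0.0341) stayed under the limit on size. It was 0.36 in mutants as well, where fl-E17 had a median of 7.68 and fl-P4 one of 8.07.

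From E17 to P4 in mutants, 1 member (2.94%) was called lower and 0 higher, where 7.47% of all expressed miRNAs were called lower and 3.2% higher. At an unadjusted p under 0.05, 9 members were lower and 11 higher, where 23.1% of all miRNAs were lower and 22.8% higher. Without normalization between arrays 11 members were called higher and 0 lower, where 20.3% of all miRNAs were called higher and 2.85% lower. The called member was again mmu-miR-495, from 8.11, 8.05, 7.96 and 8.25 in fl-E17 to 7.61, 7.57, 7.12 and 7.66 in fl-P4, a difference of -0.60 ± 0.11 (adjusted p = 0.00139). Without fl-P4 replicate 3, its lowest array, the difference was -0.48, under the limit on size. The second probe of mmu-miR-495 gave -0.29 in the full fit, also under that limit. The median over the members was 0.08 in mutants and -0.15 in controls, against 0.03 and -0.02 over all expressed miRNAs.

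As a part of the cluster's own summed signal, mmu-miR-495 took 3.36% to 3.92% in wt-E17 and 3.43% to 3.86% in fl-E17, and 1.54% to 1.96% in wt-P4 and 1.49% to 2.12% in fl-P4. mmu-miR-379 took 8.64% to 11.2%, 11.3% to 13.6%, 12.6% to 16.6% and 13.5% to 16.4% in the same order of groups. For both, the ranges of the genotypes overlapped at P4 and those of the ages did not overlap in controls. The cluster sums include mmu-miR-494, which took up to 14.99% of them in wt-E17 and 18.3% in wt-P4. They also include mmu-miR-376c*, with up to 6.15% in fl-P4, and the ranges depend on both.

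mmu-miR-494 stood apart from the rest of the cluster. It measured 9.31, 8.50, 7.66 and 8.31 in wt-E17 and 7.02, 7.62, 7.53 and 7.88 in fl-E17, a difference of -0.94 ± 0.49 (adjusted p = 0.241) that was not called and came from overlapping groups. From wt-E17 to wt-P4 its difference was -0.93 ± 0.49 (adjusted p = 0.157), also not called. In P4 controls it measured 6.76, 9.38, 6.92 and 7.01, so that a single array stood far above the rest, and in fl-P4 it measured 7.61, 7.16, 7.83 and 7.73. On that wt-P4 array all 20 of its spots were well above background, with median signals between 411 and 1684. The other wt-P4 arrays lay under all fl-P4 arrays, so that its P4 difference of 0.06 rested on this array. Without this array its difference from wt-E17 to wt-P4 was -1.55, the lowest of the 34 expressed members. In that fit 5 members, in place of 4, were called lower with age in controls, where 13.2% of all miRNAs were called lower. Without mmu-miR-494 the cluster took 3.24% to 3.73% of the summed signal in wt-P4, 7.08% to 7.64% in fl-P4, 4.25% to 6.22% in wt-E17 and 6.85% to 7.67% in fl-E17, still without overlap between the genotypes. The 7.08%, of fl-P4 array 3, was 6.625% when mmu-miR-376c* was left out as well.

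**Figure D4:**
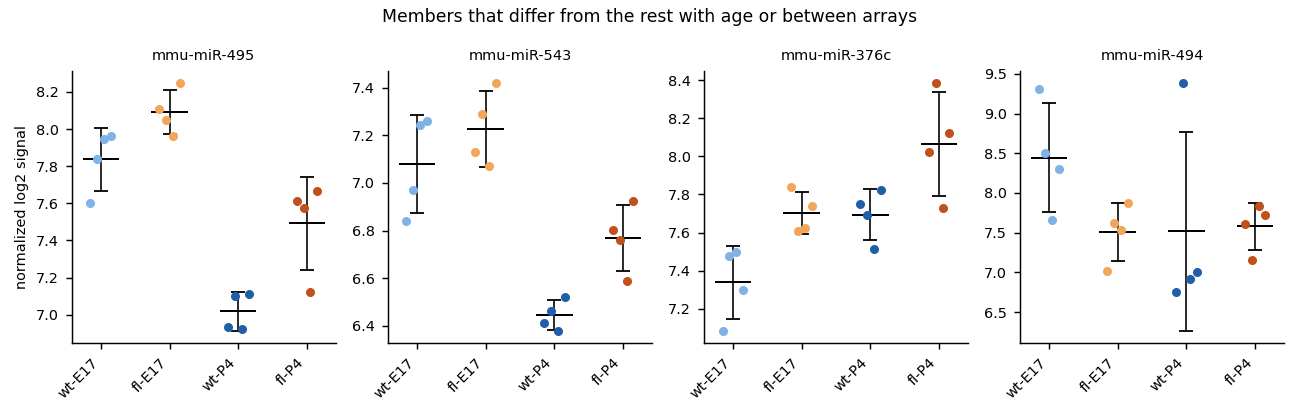
Normalized log2 signal (y axis, a scale of its own in each panel) of mmu-miR-495, mmu-miR-543, mmu-miR-376c and mmu-miR-494 in the 4 groups. Points are arrays, lines are means and bars are SD over 4 arrays. mmu-miR-495 and mmu-miR-543 are lower at P4, mmu-miR-376c is higher there, and mmu-miR-494 has 1 wt-P4 array at 9.38 far above the other 3.

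The members also varied together between mice of 1 group. Array 1 of wt-E17 was the lowest of its group for 30 of the 34 expressed members, array 3 of wt-P4 for 28 and array 3 of fl-P4 for 29. Replicates correlated at 0.972 to 0.998 over all probes. On array 3 of wt-P4 and array 3 of fl-P4 the median of all expressed miRNAs was also lowest, at 6.72 and 6.74 where the other P4 arrays had 6.81 to 6.86, and they had the fewest probes well above background at P4, 331 and 291. The part of this in the low values of the members was not tested. Without fl-P4 replicate 3, 13 members were called higher at P4, where 12.8% of all miRNAs were. The difference of mmu-miR-299* was then 1.08. Across the 34 members the differences at E17 and at P4, which share no arrays, had a Pearson's r of 0.624, and 0.742 over the 33 members without mmu-miR-494. The P4 difference also went with brightness, with a Pearson's r of 0.882 between the mean log2 signal of a member and its difference, and of 0.515 on background-subtracted signals. These are descriptions, since members share arrays and the level of background. The 34 include mmu-miR-539 and mmu-miR-485*, which were never well above background.

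**Figure D5:**
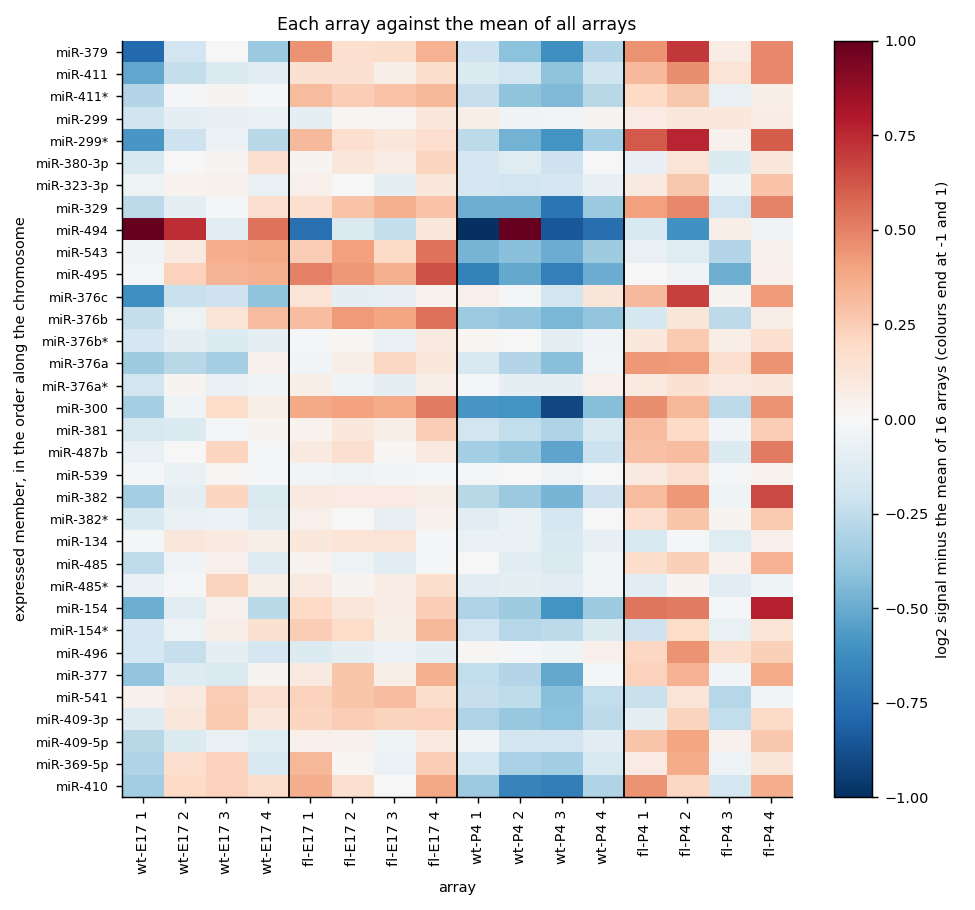
Normalized log2 signal of the 34 expressed members (rows, in the order along the chromosome) on the 16 arrays (columns), each minus the mean of that member over all arrays. Red is above and blue below the mean, and colours end at -1 and 1. fl-P4 arrays 1, 2 and 4 are red in most rows, wt-P4 arrays are blue in most rows, and mmu-miR-494 differs from its neighbours.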

How the data were processed

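miRNAs were measured in 16 sciatic nerve samples, 1 array per mouse. The authors deposited the scanner output of Agilent Feature Extraction 10.5.1.1 per the labels, with the intensity of each spot, not normalized between arrays, and a table of their quantile-normalized intensities. That table was used as an alternative. Its other columns, flags of the authors, were not used.

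The log2 median intensity of 13000 spots was quantile normalized over 16 arrays, as the study's methods state. Averaging per probe, leaving out spots marked as outliers, was a choice made here. Of 1857 probes of 650 names, 39 of them viral, 681 probes of 281 expressed miRNAs were tested with limma 3.58.1 (R 4.3.3) in 1 fit of 4 groups of 4, in place of the methods' t-test, with Benjamini-Hochberg adjustment over the probes. A miRNA was called where at least 1 probe was called and none the other way, and is given by its brightest probe. Every member is named for P4 mutants, and for the other comparisons the called members and those singled out, called ones with all arrays. Shares use the background-subtracted gene intensity, negative values at 0.

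Members and lists were chosen with earlier results of these data known. The number of arrays limits the precision, and no spot of the members was saturated. The limma fit and the calls of probes were tested on simulated, independent arrays with a change put into fl-P4 only. Normalization, filter, calls per miRNA, shares and the other comparisons were not part of that test. Alternatives covered signal, background, scaling, filter, limits, test, probes, arrays in the fit, replicate block, the authors' intensities and single arrays left out.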

Additional observations from a re-analysis of the deposited data

Results flagged for a closer look

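In 140 groups of 4 arrays, 8 held an array whose distance from the nearest other was above the 95% limit of Dixon's test for its group's range, and chance gives about 1 in 20. In fl-P4, array 3 was low for mmu-miR-329 (8.62, the others 9.23 to 9.31), mmu-miR-495 (7.12, the others 7.57 to 7.66) and mmu-miR-376a (7.79, the others 8.06 to 8.08). In wt-P4, array 3 was low for mmu-miR-154 (7.67, the others 7.91 to 7.96) and mmu-miR-541 (6.73, the others 6.89 to 6.92), and array 2 was high for mmu-miR-494 (9.38, the others 6.76 to 7.01). In wt-E17, array 1 was low for mmu-miR-411* (6.94, the others 7.22 to 7.26) and mmu-miR-410 (8.24, the others 8.76 to 8.82).

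The effect of the mutation on mmu-miR-487b differed between the ages by 0.5543 in the test of that difference.

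Outside the members called expressed, the gene signal of mmu-miR-376c* was 255.1 on fl-P4 array 3, where the control arrays read 0.156 to 3.23. Of its 20 spots on that array 2 were well above background, at 16749 and 2843, and both were marked as outliers, while the next brightest read 65.5. Without this member the share of the cluster on that array was 6.89%. The gene signal of mmu-miR-666-3p was 10.83 on the same array, where the control arrays read -4.7 to -0.0537. Of its 20 spots there 2 were well above background and 2 were marked as outliers, and the brightest read 61.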

How the results depend on the processing

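At P4, 10 members were called in the fit reported. Their number was 0 without normalization between arrays, also on background-subtracted signals, 33 scaled to the 75th percentile, 26 on background-subtracted signals, 26 with no limit on the log2 difference, 0 with a limit of 1 and 6 with normexp on median signals. Of all miRNAs 0.356%, 3.2%, 60.1%, 26.3%, 29.5%, 2.14% and 6.76% were called higher in these settings. In the same order 31.7%, 43.8%, 14.6%, 26.7%, 30.2%, 2.85% and 7.83% were called lower. For E17 (1 reported) the number of members was 0, 0, 0, 0, 5 and 0 in the order no normalization, no normalization of background-subtracted signals, 75th percentile, background-subtracted, no limit and limit of 1, and 0 without a filter and with the adjusted t-test. Of all miRNAs 0.712%, 0%, 1.78%, 1.07%, 8.19%, 0%, 0.462% and 1.07% were called higher in these settings. In the same order 1.78%, 2.49%, 3.56%, 4.63%, 8.54%, 0%, 1.08% and 3.2% were called lower. For age in controls (4 reported, all lower) the number of members was 18 and 22, all higher, 26, all lower, 14 (2 higher, 12 lower), 16 (4 higher, 12 lower) and 0 in the order given for E17, and 1, lower, with normexp. Of all miRNAs 57.3%, 66.9%, 12.8%, 26%, 31.7%, 1.42% and 5.34% were called higher in these settings. In the same order 1.42%, 4.63%, 64.1%, 23.8%, 23.1%, 3.2% and 6.41% were called lower. For age in mutants (1 reported, lower) the number of members was 11 and 21, all higher, 7 (1 higher, 6 lower), 8 (4 higher, 4 lower), 19 (14 higher, 5 lower) and 0, with 0 for normexp and 3 for the authors' intensities. Of all miRNAs 20.3%, 42.3%, 6.41%, 16.4%, 24.6%, 0%, 1.78% and 6.76% were called higher in these settings. In the same order 2.85%, 5.34%, 22.1%, 16.7%, 17.8%, 2.14%, 6.41% and 8.9% were called lower. For the difference between effects (1 reported) it was 0, 0, 6, 0, 2 and 0, with 0 for normexp and without a filter, and 4 for the authors' intensities.

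Leaving out single arrays gave 10 to 13 at P4, 0 to 2 at E17, 4 to 7 and 0 to 3 for age in controls and mutants, and 0 to 7 for the difference between effects. At E17, 0 were called without wt-E17 replicate 1 or fl-E17 replicate 1 or 4. Without wt-E17 replicate 3, 2 were called, all higher. Without wt-P4 replicate 2, 2 were called, 1 higher and 1 lower (mmu-miR-494). For age in controls, 7 were called without wt-E17 replicate 1. For age in mutants it was 0 without fl-P4 replicate 3, 3 without fl-P4 replicate 4, and 2 without fl-E17 replicate 1 or 3 or fl-P4 replicate 2. For the difference between effects, 7 were called without fl-P4 replicate 3, 3 without wt-E17 replicate 1, 2 without wt-P4 replicate 2, and 0 without wt-E17 replicate 3, fl-E17 replicate 1 or 4, wt-P4 replicate 1 or 3, or fl-P4 replicate 1, 2 or 4. The mice were littermates, but the labels do not say that a number marks a litter. Deviations of same-numbered arrays correlated between -0.519 and 0.0901 at E17 and between -0.281 and 0.459 at P4, where 3 of 4 were over 0.1. Arrays with different numbers correlated between -0.491 and 0.474 at P4. These values do not decide whether a number marks a pair, and the reported fit did not take the numbers as pairs. As an alternative, the replicate block changed 1 count by more than 1.5 times, that of the difference between effects, to 2. Of all miRNAs 3.2% were then called higher and 7.12% lower.

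Reversed were mmu-miR-300 (0.66 and 0.70) and mmu-miR-410 (0.57 and 0.61) for age in controls without normalization, on plain and background-subtracted signals, and mmu-miR-411 at P4 (-0.0011) on the latter. The cause was not tested. The mean shares of the cluster, 5.94%, 7.265%, 3.77% and 7.58% in wt-E17, fl-E17, wt-P4 and fl-P4, also depended on the background. From median signals without background subtraction they were 6.23%, 6.77%, 4.76% and 7.07% in the same order of groups. Normexp and unnormalized background-subtracted signals were chosen after seeing the data. Normexp on mean signals was not run, since only median signals were used here. Dim probes near background limit what can be seen of 9 members not called expressed.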
